A study of Mus musculus with 5 samples.

Results

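The mRNA of neurotrophins and their receptors was measured in spheres grown from postnatal mouse adrenal cells. The set holds 7 genes, chosen by symbol among the 23903 gene symbols of the deposited table: the receptor genes *Ntrk2*, *Ntrk3*, *Ngfr* and *Sort1* and the ligand genes *Bdnf*, *Ntf3* and *Ntf5*. For each symbol, the RefSeq transcript with the highest mean over the 5 libraries stood for the gene, and the other transcripts of these genes are described beside it.

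Adrenal cells were separated by immunopanning, in which cells are caught on a dish that carries an antibody against L1CAM, an adhesion molecule on the surface of chromaffin cells. Cells that held to the dish gave the L1CAM-positive spheres (2 libraries, numbered 25 and 31), and cells that were washed off gave the L1CAM-negative spheres (3 libraries, numbered 25, 31 and 28). Neither fraction had a drug treatment, and both grew as free-floating spheres in serum-free medium that contained EGF and FGF. In both fractions number 25 was cultured for 8 days and number 31 for 5 days, from a mixture of animals of postnatal days 0 and 2. L1CAM-negative 28 was cultured for 8 days from animals of postnatal day 5, and it has no L1CAM-positive counterpart. The strain is C57/bl6 by the labels and OF-1 by the study's methods. No condition was repeated within a fraction, since its libraries differ in days in culture or in the age of the animals, and the spread behind each p-value includes these differences. The labels do not say what the numbers mark or whether libraries of the same number came from the same preparation.

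The fractions differed in cell type markers, and the label of L1CAM-positive spheres as chromaffin cells was borne out by them only in part. The gene *L1cam* itself had 48.1 and 40.4 FPKM in L1CAM-positive spheres, against 3.48, 3.82 and 5.28 FPKM in L1CAM-negative spheres. All 10 chromaffin markers were higher in L1CAM-positive spheres, with sums of 6762 to 8523 FPKM against 99.2 to 533 FPKM in L1CAM-negative spheres. The glial markers were also higher there for 6 of 8 genes (sums of 66.9 to 139 FPKM against 7.85 to 14.9 FPKM), and the others did not pass the test. The cortical markers (6 of 6) and those of fibroblasts and capsule (7 of 7) were lower in L1CAM-positive spheres, with cortical sums of 1749 to 1810 FPKM against 7462 to 12643 FPKM. In bulk RNA, fewer cells of a type and less RNA per cell cannot be told apart.

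Neurotrophins are secreted survival and growth factors of the nervous system that are made as proneurotrophins and cut to their mature form. Mature BDNF and NT-4 act through the receptor tyrosine kinase TrkB, the product of *Ntrk2*, and NT-3 acts mainly through TrkC, the product of *Ntrk3*. The receptor p75NTR, the product of *Ngfr*, binds all neurotrophins and, with sortilin, the product of *Sort1*, forms a receptor for proneurotrophins. In the sympathoadrenal lineage, p75NTR is known from neural crest cells, Schwann cells and sympathetic neurons, and neurotrophins are best known there for supporting sympathetic neurons.

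Levels are given on 2 scales. The deposited values are log2 FPKM (fragments scaled to transcript length and library size) with a lowest value of 1, and FPKM in the text are the linear values after an inferred offset of 2 was taken off. Fold changes and tests are on the deposited log2 scale, L1CAM-positive minus L1CAM-negative, and this scale understates the change of genes near the floor. Each test was limma's moderated test, 2-sided, with p adjusted by the Benjamini-Hochberg method over the 19549 genes that were above the floor in at least 1 library.

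All 7 genes entered the test, and 1 of them, *Sort1*, was higher in L1CAM-positive spheres, where 15.9% of all genes tested were called higher. None was called lower, against 15.1% of all genes (limma, adjusted p). At an unadjusted p under 0.05 there were 2 genes, *Sort1* and *Ngfr*. In 2 of the 7 genes, *Ngfr* and *Sort1*, neither fraction overlapped the other and L1CAM-positive spheres were higher, as in 28.1% of all genes tested. In 3 genes, *Ntrk3*, *Ntf3* and *Ntf5*, L1CAM-positive spheres were lower without overlap, as in 31.8% of all genes tested. These counts are near the shares among all genes and do not set the family apart. The median log2 fold change of the 7 genes was -0.14, beside -0.02 for all genes tested.

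**Figure D1:**
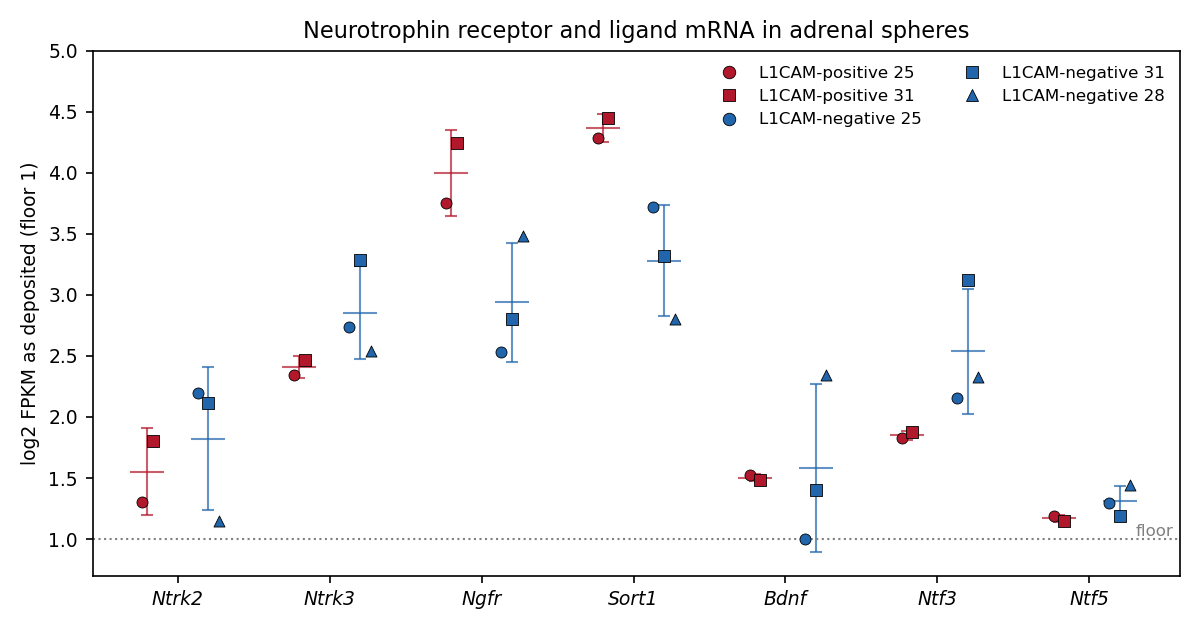
Deposited log2 FPKM (vertical axis, floor at 1) of the transcript that stands for each of the 7 genes, with 1 point per library, L1CAM-positive in red to the left and L1CAM-negative in blue to the right, and bars for the group mean and SD (n = 2 and n = 3). The red points of *Ngfr* and *Sort1* lie above all blue points, those of *Ntrk3*, *Ntf3* and *Ntf5* below them, and those of *Ntrk2* and *Bdnf* between them.

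*Sort1* (chr3:108283974-108361519 in GRCm38.p6) encodes sortilin, a sorting receptor of the Golgi and the cell surface that also steers BDNF into the secretory pathway. Its main transcript, NM_019972, had 17.5 and 19.8 FPKM in L1CAM-positive spheres 25 and 31, against 11.2, 7.98 and 5.00 FPKM in L1CAM-negative spheres 25, 31 and 28. The groups did not overlap, and the lowest level was in the library from day 5 animals. On the log2 scale it averaged 4.37 ± 0.12 in L1CAM-positive spheres and 3.28 ± 0.46 in L1CAM-negative spheres (SD, n = 2 and n = 3). The difference of 1.08 (SE 0.29, 95% interval 0.33 to 1.84) passed the threshold narrowly in limma, at an adjusted p of 0.0489. Within number 25 the difference was 0.57 and within number 31 it was 1.13.

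The call on *Sort1* held in 9 of 17 alternative settings, with adjusted p from 0.0174 to 0.233 and a log2 difference from 0.85 to 1.30 in all 17. It was lost in limma without L1CAM-positive 25 (adjusted p = 0.193), without L1CAM-positive 31 (adjusted p = 0.233) and without L1CAM-negative 31 (adjusted p = 0.110). It was also lost with days in culture as a covariate (adjusted p = 0.101 in limma), with no filter on low values (0.0994), without the variance trend (0.0566) and with a pseudocount of 0.1 (0.0509). With the library number as a replicate block the call on *Sort1* was lost as well, and *Ngfr* was called in its place.

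The table holds 2 transcripts of *Sort1*, which differ by an exon of 99 bases. This exon, at chr3:108355472-108355570 on the plus strand of GRCm38 and number 18 of 21 in the GENCODE M21 model of NM_001271599, adds 33 codons after codon 748 and keeps the reading frame. It is known as an alternative exon that the RNA-binding protein TDP-43 represses in neurons. It is shown because it is the one sequence by which the transcripts can be told apart within the coding region, with the exon in capitals and 24 bases of the exons on either side in lower case:

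*Sort1* exon: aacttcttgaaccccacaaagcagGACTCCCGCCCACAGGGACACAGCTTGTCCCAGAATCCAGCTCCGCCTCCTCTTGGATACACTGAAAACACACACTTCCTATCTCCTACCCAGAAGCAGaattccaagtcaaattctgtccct

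The transcript with this exon, NM_001271599, had 6.72 and 6.69 FPKM in L1CAM-positive spheres, against 2.23, 3.27 and 2.35 FPKM in L1CAM-negative spheres 25, 31 and 28. The L1CAM-positive libraries were nearly equal and lay above all L1CAM-negative ones. In the fit over 27893 transcripts this was the one transcript of the 23 from these genes that was called (log2 difference 0.92, SE 0.14, limma adjusted p = 0.0191), where 12.3% of all transcripts tested were called higher and 10.8% lower. NM_019972 did not pass in that fit (1.08, limma adjusted p = 0.0725). Of the 23 transcripts, 3 were higher in L1CAM-positive spheres without overlap and 5 lower, beside 24.8% and 29% of all transcripts tested. The call on NM_001271599 was lost without L1CAM-positive 25, without L1CAM-positive 31 and without L1CAM-negative 25 (limma adjusted p = 0.0673 for the last). It was also lost with the library number as a replicate block.

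Inclusion of the exon did not separate the fractions. The transcript with the exon made up 27.8% and 25.2% of *Sort1* FPKM in L1CAM-positive spheres, against 16.6%, 29.1% and 32.0% in L1CAM-negative spheres 25, 31 and 28. The L1CAM-positive shares lay inside the L1CAM-negative range. Both transcripts together gave 24.2 and 26.5 FPKM in L1CAM-positive spheres and 13.4, 11.3 and 7.35 FPKM in L1CAM-negative spheres, and the ratio of the group means was 2.38.

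*Ngfr* (chr11:95568818-95587698) encodes p75NTR, a member of the TNF receptor superfamily without kinase activity, and has 1 transcript in the table, NM_033217. It had 11.5 and 17 FPKM in L1CAM-positive spheres 25 and 31, against 3.78, 4.98 and 9.16 FPKM in L1CAM-negative spheres 25, 31 and 28. The groups did not overlap, but L1CAM-negative 28, the library from day 5 animals, came close to L1CAM-positive 25. The log2 level was 4.0 ± 0.35 in L1CAM-positive spheres and 2.94 ± 0.49 in L1CAM-negative spheres (SD, n = 2 and n = 3). The difference of 1.06 (SE 0.34, 95% interval 0.17 to 1.95) was as large as that of *Sort1* but did not pass, at a limma adjusted p of 0.0785. Within number 25 it was 1.22 and within number 31 it was 1.44.

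Without L1CAM-negative 28 the *Ngfr* difference was 1.33 and passed (limma adjusted p = 0.0180). It passed as well with the library number as a replicate block. That fit is not a separate check, since a block for number 28, present in 1 fraction, takes this library out of the difference. In the other settings that left out a library it lay between 0.81 and 1.31, with limma adjusted p from 0.159 to 0.333. Schwann cell precursors also carry p75NTR, and glial markers differed between the same libraries. *Sox10*, a transcription factor of neural crest and glia, had 7.62 and 18.9 FPKM in L1CAM-positive spheres 25 and 31, against 0.566, 0.735 and 1.79 FPKM in L1CAM-negative spheres 25, 31 and 28. Within each fraction the order of the libraries by *Sox10* was the order by *Ngfr*. Chromaffin markers were also higher in L1CAM-positive spheres, and the part of either cell type in the *Ngfr* and *Sort1* differences was not tested.

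**Figure D2:**
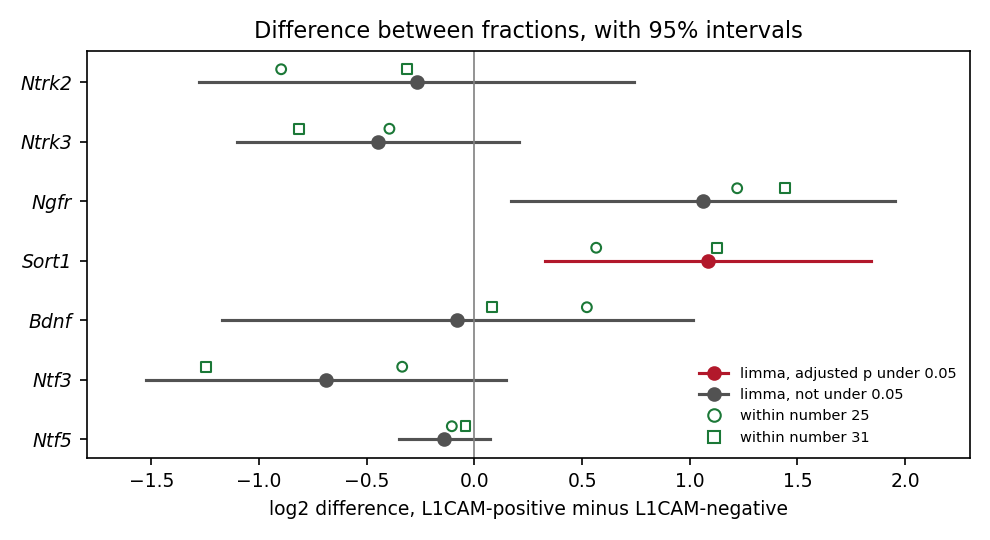
Log2 difference between L1CAM-positive and L1CAM-negative spheres (horizontal axis) for each of the 7 genes, with filled points for the limma estimate, lines for its 95% interval, and open symbols for the difference within library numbers 25 and 31. The interval of *Sort1* (0.33 to 1.84) and that of *Ngfr* (0.17 to 1.95) lie above 0 before adjustment, and the other intervals include 0.

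*Ntrk3* (chr7:78179986-78581034) encodes TrkC, and its 2 transcripts in the table stand for different receptors. NM_008746 encodes the full-length receptor with its kinase domain (825 codons), and NM_182809 a truncated receptor (612 codons) that shares the first 528 codons and then ends in 83 codons of its own, without the kinase. The truncated transcript leaves the shared sequence at an exon at chr7:78304292-78304426 and the full-length one at an exon at chr7:78260284-78260414, both on the minus strand. The sequences on either side of this branch point are shown because the split of the gene into kinase and truncated forms rests on them, with the last 30 shared bases in lower case and the first 60 bases of each form's own sequence in capitals:

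*Ntrk3* truncated: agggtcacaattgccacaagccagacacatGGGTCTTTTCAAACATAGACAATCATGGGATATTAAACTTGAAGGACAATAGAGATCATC

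*Ntrk3* full-length: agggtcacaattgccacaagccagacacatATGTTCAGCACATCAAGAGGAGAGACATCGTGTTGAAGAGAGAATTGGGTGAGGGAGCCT

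The truncated form was the main *Ntrk3* transcript in every library. It had 3.07 and 3.54 FPKM in L1CAM-positive spheres 25 and 31, against 4.67, 7.74 and 3.83 FPKM in L1CAM-negative spheres 25, 31 and 28. The full-length form had 0.558 and 0.732 FPKM in L1CAM-positive spheres, against 0.739, 1.23 and 0.845 FPKM in L1CAM-negative spheres. Both forms were lower in the L1CAM-positive libraries with no overlap, and both were highest in L1CAM-negative 31.

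Neither form passed the test. The gene-level log2 difference was -0.45 (SE 0.25, 95% interval -1.10 to 0.21, limma adjusted p = 0.246), and over transcripts the full-length form differed by -0.15 (limma adjusted p = 0.336). The truncated form took 84.6% and 82.9% of *Ntrk3* FPKM in L1CAM-positive spheres, against 86.3%, 86.3% and 81.9% in L1CAM-negative spheres, so the shares overlapped. These shares depend on the transcript lengths used for FPKM. The GENCODE M21 model of the full-length form is 19703 bases long and that of the truncated form 3977 bases, and the lengths used for the deposited values are not given in the sources used here.

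*Ntrk2* (chr13:58806472-59133970) encodes TrkB and was low and uneven. The table holds a truncated form, NM_008745 (476 codons, known as TrkB.T1), and full-length forms, NM_001025074 and NM_001282961 (821 codons each). The truncated and full-length forms share 464 codons, after which the truncated form adds 11 codons and a stop from an exon at chr13:58932023-58933120, on the plus strand, and the full-length form goes on for 356 codons from an exon at chr13:58985802-58985990. The branch point is shown as for *Ntrk3*, with shared bases in lower case and each form's own bases in capitals, down to the stop codon TAG in the truncated form:

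*Ntrk2* truncated: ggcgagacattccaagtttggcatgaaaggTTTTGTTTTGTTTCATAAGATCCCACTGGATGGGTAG

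*Ntrk2* full-length: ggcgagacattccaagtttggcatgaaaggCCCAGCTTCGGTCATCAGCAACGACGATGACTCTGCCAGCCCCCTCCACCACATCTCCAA

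Truncated *Ntrk2* had 0.467 and 1.49 FPKM in L1CAM-positive spheres 25 and 31, against 2.6, 2.33 and 0.219 FPKM in L1CAM-negative spheres 25, 31 and 28. The lowest value of all was in L1CAM-negative 28, below both L1CAM-positive libraries, while L1CAM-negative 25 and 31 were above them. All transcripts together varied 3.28-fold between the L1CAM-positive libraries and 9.58-fold among the L1CAM-negative ones, the widest spread among the 7 genes in both fractions. The log2 difference was -0.27 with a 95% interval from -1.28 to 0.74 (limma adjusted p = 0.630), an interval that includes a change of either sign.

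Full-length NM_001025074 had 0.0779 and 0.294 FPKM in L1CAM-positive spheres, against 0.190, 0.104 and 0.0450 FPKM in L1CAM-negative spheres 25, 31 and 28, close to the floor in each library. The other full-length transcript, NM_001282961, did not exceed 0.0270 FPKM. The truncated form made up 85.7% and 83.5% of *Ntrk2* FPKM in L1CAM-positive spheres, against 93.2%, 95.7% and 75.2% in L1CAM-negative spheres 25, 31 and 28. By these FPKM the kinase form of TrkB was a minor fraction of low levels in both kinds of sphere, and the shares overlapped. As for *Ntrk3*, the shares depend on the transcript lengths used for FPKM, which are not given. The GENCODE M21 model of NM_001025074 is 8744 bases long and that of the truncated form 3049 bases.

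**Figure D3:**
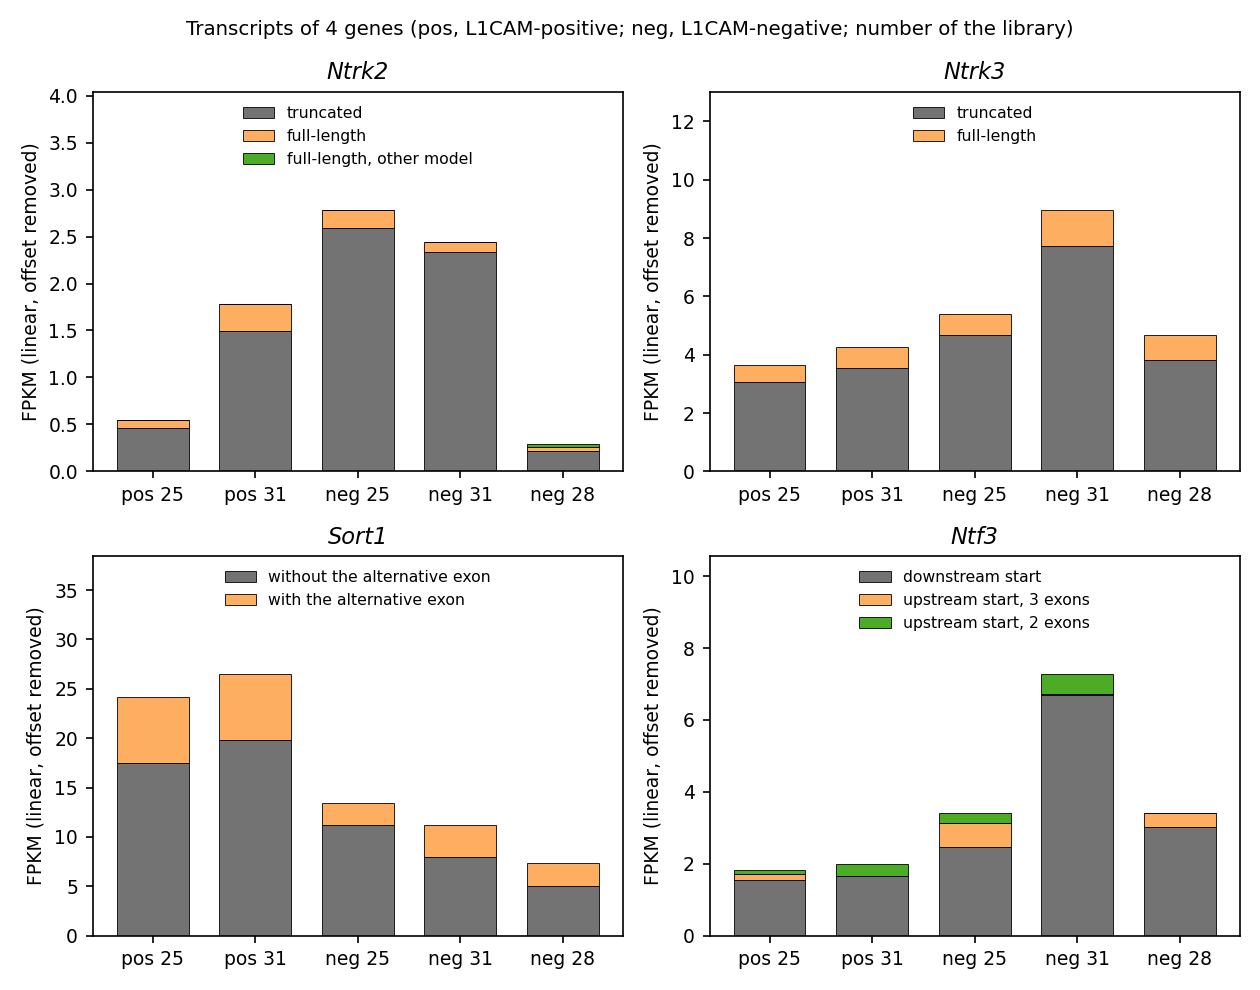
FPKM (vertical axes, linear) of the transcripts of *Ntrk2*, *Ntrk3*, *Sort1* and *Ntf3*, stacked per library, with the L1CAM-positive libraries left of the L1CAM-negative ones in each panel. Truncated forms make up 75.2% to 95.7% of *Ntrk2* and 81.9% to 86.3% of *Ntrk3*, and the bars of *Sort1* are higher and those of *Ntf3* lower in both L1CAM-positive libraries than in any L1CAM-negative one.

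The balance between p75NTR and Trk mRNA differed between the fractions as levels, with no test. *Ngfr* over the sum of all *Ntrk2* and *Ntrk3* transcripts was 2.74 and 2.80 in L1CAM-positive spheres, against 0.461, 0.436 and 1.84 in L1CAM-negative spheres 25, 31 and 28. Over full-length forms alone it was 18.0 and 16.5 in L1CAM-positive spheres, against 4.07, 3.74 and 9.99 in L1CAM-negative spheres. In both ratios the day 5 library lay between the other L1CAM-negative libraries and the L1CAM-positive ones. *Sort1* over *Ngfr* was 2.11 and 1.56 in L1CAM-positive spheres, against 3.54, 2.26 and 0.802 in L1CAM-negative spheres, and these values overlapped.

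Among the ligands, *Ntf3* (chr6:126101412-126166772), which encodes NT-3, had the highest mean level in both fractions. Its main transcript, NM_001164035, had 1.54 and 1.67 FPKM in L1CAM-positive spheres 25 and 31, against 2.47, 6.70 and 3.03 FPKM in L1CAM-negative spheres 25, 31 and 28. The L1CAM-positive libraries lay together and below all L1CAM-negative libraries, which were spread, with L1CAM-negative 31 the highest. The log2 level was 1.85 ± 0.04 in L1CAM-positive spheres and 2.54 ± 0.51 in L1CAM-negative spheres (SD, n = 2 and n = 3). The difference of -0.69 (SE 0.32, 95% interval -1.52 to 0.15) did not pass (limma adjusted p = 0.177). Within number 25 it was -0.34 and within number 31 it was -1.25.

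NM_001164035 starts 1755 bases downstream of NM_001164034, a transcript that encodes the same 271 codons. It made up 84.4% and 83.3% of *Ntf3* FPKM in L1CAM-positive spheres, against 72.4%, 92.0% and 89.0% in L1CAM-negative spheres 25, 31 and 28. The downstream start was thus the main one in every library. The 200 bases before that start (chr6:126164961-126165160, minus strand, GRCm38.p6, RefSeq) are shown for this reason, with a GC-box (GGGCGG, searched on both strands) in capitals:

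*Ntf3* downstream promoter: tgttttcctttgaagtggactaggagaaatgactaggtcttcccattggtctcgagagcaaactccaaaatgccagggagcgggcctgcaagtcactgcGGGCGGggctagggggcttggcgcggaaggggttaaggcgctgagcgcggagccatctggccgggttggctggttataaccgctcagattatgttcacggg

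This stretch has a GC content of 58.0% and 1 GC-box, a motif found in 31.0% of 32851 mouse promoter windows of the same length, and a match describes the letters alone. The other 2 *Ntf3* transcripts were low and changed places between libraries. NM_001164034 had 0.186 and 0.00268 FPKM in L1CAM-positive spheres, against 0.666, 0.0228 and 0.376 FPKM in L1CAM-negative spheres 25, 31 and 28.

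*Bdnf* (chr2:109674700-109727043) encodes brain-derived neurotrophic factor, and its transcripts differ in their first exon and share the coding exon. Of the 11 transcripts in the table, 9 had at most 0.248 FPKM in any library. NM_001048142 had 0.872 and 0.798 FPKM in L1CAM-positive spheres, against 0.647 and 3.08 FPKM in L1CAM-negative spheres 31 and 28, and it was practically at the floor in L1CAM-negative 25. NM_001048141 was practically at the floor in L1CAM-positive 25 and had 0.596 FPKM in L1CAM-positive 31, against 0.426 and 0.699 FPKM in L1CAM-negative 25 and 28, with L1CAM-negative 31 practically at the floor. By these FPKM the main transcript varied between libraries of 1 fraction. At such levels, with unknown depth and a shared coding exon, a change of the first exon in use was not tested.

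Summed over transcripts, *Bdnf* had 0.878 and 1.68 FPKM in L1CAM-positive spheres, against 0.579, 0.647 and 4.03 FPKM in L1CAM-negative spheres 25, 31 and 28. The highest level was in the day 5 library, above both L1CAM-positive libraries. L1CAM-negative 25 and 31 lay below both, so the overlap of the fractions rests on L1CAM-negative 28. The log2 difference of NM_001048142, which stood for the gene, was -0.08 (95% interval -1.17 to 1.01, limma adjusted p = 0.900), and it turned to 0.30 without L1CAM-negative 28. With transcripts summed the difference was -0.085 (limma adjusted p = 0.895).

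*Ntf5* (chr7:45413695-45417179), also named *Ntf4*, encodes NT-4 and had the lowest mean of the 7 genes in both fractions. Its transcript NM_198190 had 0.280 and 0.217 FPKM in L1CAM-positive spheres, against 0.452, 0.282 and 0.712 FPKM in L1CAM-negative spheres 25, 31 and 28. L1CAM-positive 25 and L1CAM-negative 31 were practically level, and the log2 difference of -0.14 (SE 0.08, 95% interval -0.35 to 0.07) did not pass (limma adjusted p = 0.265).

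Since FPKM is scaled to transcript length, the levels can be set in order within a fraction. In L1CAM-positive spheres the group means with all transcripts summed were *Sort1* 25.3 ± 1.63, *Ngfr* 14.2 ± 3.89, *Ntrk3* 3.95 ± 0.453, *Ntf3* 1.91 ± 0.124, *Bdnf* 1.28 ± 0.568, *Ntrk2* 1.17 ± 0.877 and *Ntf5* 0.248 ± 0.0442 FPKM (SD, n = 2). The ranges of *Bdnf* and *Ntrk2* overlapped, and those of the other neighbours did not. In L1CAM-negative spheres the means were *Sort1* 10.7 ± 3.06, *Ntrk3* 6.35 ± 2.3, *Ngfr* 5.97 ± 2.83, *Ntf3* 4.70 ± 2.23, *Ntrk2* 1.84 ± 1.35, *Bdnf* 1.75 ± 1.97 and *Ntf5* 0.482 ± 0.217 FPKM (SD, n = 3).

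In L1CAM-negative spheres the ranges of all neighbours in this order overlapped except those of *Ntf3* and *Ntrk2*. Within each L1CAM-negative library, however, *Sort1* was above *Ntrk3* and *Ntrk3* above *Ntf3*. *Ngfr* changed place among these genes from library to library, so its place there is not settled. All 7 genes were of low to middling level. Their means over all libraries ranked between the 22.1st percentile (*Ntf5*) and the 62.0th percentile (*Sort1*) of the genes tested.

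The genes whose pattern over the 5 libraries was most like each member were found by the root mean square difference of log2 values centred on their means, over 4551 genes with a range of at least 1 and a mean of at least 1 FPKM. For *Sort1* they were *Pcsk2*, a prohormone convertase of endocrine cells (0.09), *Btg2*, an antiproliferative gene (0.11), and *Rrm1*, a ribonucleotide reductase subunit (0.12). For *Ngfr* they were *Pcdh17*, a protocadherin (0.14), *Dclk1*, a doublecortin-like kinase (0.15), and *Cgref1* (0.15). For *Ntf3* they were *Pecam1*, an endothelial adhesion molecule (0.06), *Sox18*, a transcription factor of endothelium (0.06), and *Cyth4* (0.08). *Pecam1* is 1 of the 6 endothelial markers and did not pass (limma adjusted p = 0.113). Of the other endothelial markers, 3 were called lower in L1CAM-positive spheres, where 15.1% of all genes tested were called lower. The sums of the 6 markers were 35.7 FPKM in both L1CAM-positive libraries against 185, 188 and 357 FPKM in L1CAM-negative spheres 25, 31 and 28. Most of these sums is *Emcn*, an endothelial sialomucin. It had 32.8 and 32.1 FPKM in L1CAM-positive spheres, against 145, 154 and 313 FPKM in L1CAM-negative spheres 25, 31 and 28. *Emcn* and *Plvap* were highest in L1CAM-negative 28 and *Cdh5* in L1CAM-negative 25. *Pecam1*, *Tie1* and *Kdr*, all low, were highest in L1CAM-negative 31, as was *Ntf3*. The sum of 5 macrophage markers, 1 of which was called lower, was also highest in L1CAM-negative 31. It was 7.46 and 9.73 FPKM in L1CAM-positive spheres, against 30.7, 71.5 and 17.2 FPKM in L1CAM-negative spheres 25, 31 and 28. The part of either cell type in the *Ntf3* values was not tested.

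For *Ntrk2* the nearest genes were *Bche*, which encodes butyrylcholinesterase (0.13), *Aldh1b1*, a mitochondrial aldehyde dehydrogenase (0.13), and the long non-coding RNA *Airn* (0.14). For *Bdnf* they were *Aldh1a3*, a retinaldehyde dehydrogenase (0.11), *Nrgn*, which encodes neurogranin (0.13), and *Sel1l3* (0.17). With 5 libraries these are descriptions of likeness, and *Ntrk3* and *Ntf5* did not meet the conditions on range and mean.

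The genes that act with these ligands and receptors were read from 5 lists with 87 genes, of which 86 were tested. In L1CAM-positive spheres 19 of them (22.1%) were higher and 17 (19.8%) lower, beside 15.9% and 15.1% of all genes tested, and the median log2 fold change was -0.08. The counts rest on both L1CAM-positive libraries, with 9 higher and 6 lower without L1CAM-positive 25, 10 and 8 without L1CAM-positive 31, and 26 lower without L1CAM-negative 28. The chromaffin, glial, cortical and capsular markers given above move with these lists, and their part in them was not tested.

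Of 9 relatives of sortilin and co-receptors of p75NTR, 3 rose and 3 fell in L1CAM-positive spheres (median log2 fold change -0.25). *Lingo1*, whose product forms a receptor for myelin inhibitors with p75NTR, rose by 2.0 (limma adjusted p = 0.00281), with 18.3 and 15.5 FPKM in L1CAM-positive spheres against 3.01, 3.31 and 1.93 FPKM in L1CAM-negative spheres 25, 31 and 28. Its partner *Rtn4r*, the Nogo receptor, rose by 0.23 (limma adjusted p = 0.0342), with 0.471 and 0.663 FPKM in L1CAM-positive spheres against 0.0844, 0.257 and 0.201 FPKM in L1CAM-negative spheres 25, 31 and 28, and it kept the call in 8 of 16 alternatives. *Sorcs3*, a receptor related to sortilin, rose by 0.19 (limma adjusted p = 0.0104), with 0.365 and 0.401 FPKM in L1CAM-positive spheres against 0.129, 0.0546 and 0.0823 FPKM in L1CAM-negative spheres. Both genes lie near the floor, where the offset of 2 keeps log2 differences small, and with a pseudocount of 0.1 the differences were 1.29 and 1.37. *Tnfrsf19*, a TNF receptor family member that can stand in for p75NTR in the Nogo receptor complex, *Rtn4rl1*, a relative of the Nogo receptor, and *Nradd*, a death-domain protein related to p75NTR, fell by 1.43, 1.29 and 0.87 (limma adjusted p = 0.0259, 0.00886 and 0.00342).

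Of 13 genes for partners of the p75NTR intracellular domain and for the enzymes that cut the receptor, 2 rose and 1 fell (median -0.02). *Bex1*, whose product binds the intracellular domain, rose by 2.54 (limma adjusted p = 0.00608), and *Maged1*, the partner also known as NRAGE, rose by 0.62 (0.0326). *Adam17*, a protease that sheds the p75NTR ectodomain, fell by 0.66 (limma adjusted p = 0.0136). *Arhgdia*, an inhibitor of small GTPases that binds p75NTR, differed by 0.21 without passing (limma adjusted p = 0.0989).

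Of 34 Trk adaptors and effectors, 9 rose and 4 fell (median 0.09). The adaptors *Shc2* and *Gab2* rose by 2.07 and 1.78 (limma adjusted p = 0.00143 and 0.00190). *Pik3r1*, the regulatory subunit of PI3 kinase, and the adaptors *Crk* and *Sh2b3* fell by 1.28, 0.51 and 0.46 (limma adjusted p = 0.0155, 0.00577 and 0.0487), and *Sh2b3* kept the call in 8 of 17 alternatives (limma adjusted p up to 0.232). The abundant kinases *Mapk3* (0.26, limma adjusted p = 0.267) and *Akt1* (-0.29, 0.125) did not pass, though *Akt1* passed in 2 of 17 alternatives.

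Of 13 genes for proneurotrophin cleavage and extracellular proteolysis, 1 rose and 5 fell (median -0.81). The convertase genes split: *Pcsk6* rose by 1.01 (limma adjusted p = 0.00287), while *Pcsk5* fell by 2.18 and *Furin* fell by 0.72 (limma adjusted p = 0.00242 and 0.0150). *Plau* and *Plat*, the plasminogen activators that start the extracellular cleavage of proBDNF, fell by 1.20 and 1.18 (limma adjusted p = 0.0229 and 0.00737). The plasminogen gene *Plg* itself had 0.0412 FPKM in L1CAM-positive 25 and 0.0561 FPKM in L1CAM-negative 25, and was at the floor in the other libraries. Cleavage of proBDNF was not measured.

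Of 17 genes known to respond to neurotrophins, 4 rose and 4 fell (median -0.59). *Npy*, *Vgf* and *Gap43*, a neuropeptide, a secreted neuroendocrine protein and a growth cone protein, rose by 2.89, 2.76 and 2.74 (limma adjusted p = 0.00824, 0.00813 and 0.00140). These 3 genes are also expressed by chromaffin cells, whose 10 markers were all higher in the same libraries. In L1CAM-positive spheres 25 and 31, *Npy* had 606 and 1308 FPKM, *Vgf* 54.2 and 125 FPKM, and *Gap43* 122 and 149 FPKM. The chromaffin sums there were 8523 and 6762 FPKM, and *Pnmt*, 1 of the markers in the sum, had 39.0 and 55.5 FPKM. Numbers 25 and 31 also differ in days in culture. The part of chromaffin cells in these 3 differences was not tested. The feedback inhibitors *Spry4*, *Spry2* and *Dusp6* fell by 1.49, 1.36 and 1.29 (limma adjusted p = 0.00548, 0.00156 and 0.00329). They also answer to EGF and FGF, which the medium of both fractions contained. The immediate early gene *Egr1* differed by -0.20 (limma adjusted p = 0.768).

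**Figure D4:**
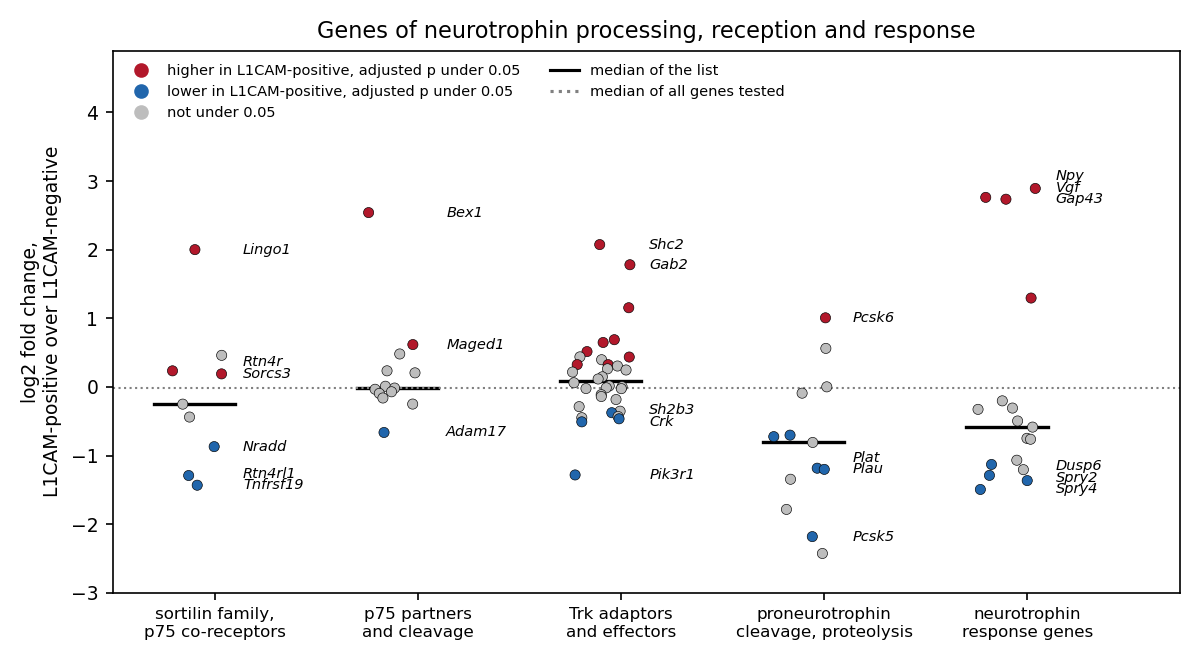
Log2 fold change between the fractions (vertical axis, positive where L1CAM-positive spheres were higher) of the 86 tested genes of 5 lists, with 1 point per gene, red for called higher, blue for called lower and grey for neither, a black line for the median of each list and a dotted line for the median of all genes tested (-0.02). Called genes lie on both sides in each list, with the lowest list median, -0.81, among the genes of proneurotrophin cleavage and proteolysis.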

How the data were processed

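Stranded mRNA libraries were sequenced paired-end in 5 samples. Per the labels and methods, the authors used STAR 2.6.1a for alignment to mm10 and Cufflinks for FPKM, followed by quantile normalization in limma. The deposited table holds log2 FPKM for 32737 transcripts, with a floor of exactly 1, from which an offset of 2 was inferred (linear FPKM = the power of 2, less 2). The annotation release and the depth are not given in the sources used here, so no counting error was computed. Between 20.7% and 22.0% of values per library were at the floor.

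The 202 rows without symbol were left out. The fit used limma 3.58.1 in R 4.3.3 (lmFit, eBayes with trend) on 1 transcript per symbol, without the 4354 genes at the floor in all 5 libraries, and again over transcripts. p was 2-sided, Benjamini-Hochberg adjusted, threshold 0.05. Ratios between genes or transcripts were not tested. Samples were grouped by their labels. The fit was tested on simulated data.

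Transcript models came from GENCODE M21 and promoters from RefSeq (GRCm38.p6). Tables and plots used Python 3.11.15, pandas 2.3.3, numpy 2.4.6, scipy 1.17.1 and matplotlib 3.10.9. Members and lists were chosen with earlier results of these data known. Named were all members, from each list the 3 called genes with the largest change in each direction and the 2 with the highest mean, and the 3 genes most like each member. *L1cam*, *Sox10*, *Pnmt*, *Emcn*, *Plvap*, *Cdh5*, *Tie1*, *Kdr* and *Plg* were named after their values were seen. A few genes that the rule would name are not reported here. Alternatives were the offset, filter, normalization, transcript summing, variance model, culture period, replicate block and leaving out each library.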

Additional observations from a re-analysis of the deposited data

How the results depend on the processing

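Over 17 alternative settings the log2 differences of *Sort1* and *Ngfr* stayed positive and those of *Ntrk2*, *Ntrk3*, *Ntf3* and *Ntf5* negative, and none of the 7 genes was called lower. The count of the 7 genes called higher was 1, and it was 0 with a pseudocount of 0.1, with no filter on low values, without the variance trend and with days in culture as a covariate (limma adjusted p of *Sort1* 0.0509, 0.0994, 0.0566 and 0.101). When 1 library was left out it ranged from 0 to 2. The count of transcripts ranged likewise from 0 to 2 when 1 library was left out, and the limma adjusted p of *Sort1* in the gene fit was 0.0174 at its lowest, with centring on housekeeping genes. Libraries of the same number did not vary together in both pairs (correlation of deviations 0.13 for number 25 and -0.0065 for number 31). These deviations are from group means that include L1CAM-negative 28. The difference of number 25 from number 31 had a correlation of 0.068 between the fractions, and these numbers also differ in days in culture. With the number as a replicate block, the gene called was *Ngfr* (1.33, limma adjusted p = 0.0226) in place of *Sort1* (0.85, 0.0826), and 0 transcripts were called. The block takes L1CAM-negative 28 out of the differences, because its number has no L1CAM-positive library. *Bdnf*, which passed in no setting, had a log2 difference of 0.59 with a pseudocount of 0.1, 0.045 with centring on housekeeping genes and 0.30 with the block, and -0.37 to 0.30 (without L1CAM-negative 28) when 1 library was left out. *Egr1* then ranged from -0.64 to 0.067 (without L1CAM-negative 31), and NM_001025074 from -0.023 (without L1CAM-positive 31) to 0.12. The cause was not tested in these cases. Leaving out 1 library gave 1426 to 3394 genes called higher and 768 to 3820 called lower (3106 and 2961 with all libraries), and 9 to 20 higher and 6 to 26 lower among the pathway genes. Of the 30 pathway genes under the naming rule, 13 lost their call without L1CAM-positive 25 and 11 without L1CAM-positive 31, and *Egr1* passed without L1CAM-negative 28 (limma adjusted p = 0.0428). The lower counts without L1CAM-positive 25 or 31 come with 1 library in that group, assumed to vary like the other. Below about 1 FPKM (*Bdnf*, *Ntf5*, full-length *Ntrk2*) unknown depth limits what can be seen, and the filter of at least 1 FPKM in at least 2 libraries gave no value for *Bdnf*, *Ntf5*, *Rtn4r* and *Sorcs3*.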
